A study of Homo sapiens with 3 samples.

Results

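Isolated PRCC-TFE3 regions were regions of the human genome with a PRCC-TFE3 peak in both replicates and no other peak of either replicate within 100 kb on either side. Peaks here are those of the narrowPeak lists, and the peaks of the separate BED lists did not count as neighbours. Peaks that shared 1 bp or more, within or between replicates, were joined into merged regions, and 70388 of the 117636 merged regions on chromosomes 1 to 22 and X (59.8%) held a peak of each replicate and were called shared. Of these shared regions, 540 (0.767%) were isolated, and the other 69848 served as the comparison. The isolated regions were selected on measured values, namely the positions of the same peaks whose strength and width are given here, so these values are descriptions and no test was applied to them.

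Chromatin immunoprecipitation sequencing (ChIP-seq) was performed in HK-2, a cell line derived from the proximal tubule of a human kidney, which had been made to express HA-tagged PRCC-TFE3 through a Tet-On promoter. All cells, those behind the input DNA included, received doxycycline at 0.2 µg/mL for 24 h. Chromatin was cross-linked, cut by micrococcal nuclease and captured by an anti-HA antibody for 2 libraries, HA-PRCC-TFE3 replicate 1 and replicate 2, which the study describes as biological replicates, and 1 input DNA library was the background. The labels name HA-PRCC-TFE3 and were followed here, whereas the ChIP-seq methods of the study call the cells HA-TFE3 inducible. The expressed protein was an introduced, drug-induced transgene in 1 cell line, and neither uninduced cells nor a precipitation without the tag was analysed here.

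TFE3 is a basic helix-loop-helix leucine zipper transcription factor of the MiT/TFE family, which binds E-box type DNA motifs and is known for its control of lysosome and autophagy genes. In TFE3-rearranged renal cell carcinoma a chromosomal rearrangement joins TFE3 to a partner such as PRCC, and the fusion protein keeps the DNA-binding domain of TFE3 and resides in the nucleus. Binding sites of transcription factors often lie in groups, around promoters and enhancers, and a site far from any other is the opposite end of that range.

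The library totals, as recovered from the peak lists, were 12235755 (replicate 1) and 7418533 (replicate 2) tags, and the input total came to 21698019 or 21692579 tags depending on the list. A tag is a read placed on the genome. Replicate 1 had 109143 peaks in the narrowPeak list, which carries a fold enrichment for each peak, and 84243 in the BED list, which carries a tag count. Replicate 2 had 81258 and 63530. All merged regions and distances came from the narrowPeak lists, and tags were those of the strongest BED peak in a region, so a region without a BED peak had no tag count. With 2 ChIP libraries of 1 group, the only measure of error between samples was the difference between those libraries.

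Isolated regions carried fewer tags than other shared regions in both replicates. In replicate 1 the 475 isolated regions with a tag count had from 9 to 56 tags, with a median of 17 and quartiles at 13 and 23. The other shared regions had a median of 21 replicate 1 tags, with quartiles at 15 and 31 and a highest value of 245. In replicate 2 the 429 isolated regions with a tag count had from 7 to 74 tags, with a median of 11 and quartiles at 9 and 15, against a median of 14 and quartiles at 10 and 21. The 74 tags belonged to a region that overlapped an input peak, and without such regions the highest count was 41. The median of the isolated regions was therefore 0.810 of that of the other shared regions in replicate 1 and 0.786 in replicate 2, and these values lay closer to each other than to 1. The ranges overlapped, and the isolated regions lacked the highest counts.

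The highest counts were set against limits set on all shared regions. At least 43 replicate 1 tags, a limit passed by 10.6% of the other shared regions, were present in 11 isolated regions (2.32%). At least 30 replicate 2 tags were present in 13 isolated regions (3.03%), compared with 10.3% of the others. Isolated regions were more frequent among the weakest regions, since 202 (42.5%) had at most 15 replicate 1 tags and 180 (42.0%) at most 10 replicate 2 tags, against 26.7% and 27.2% of the other shared regions. A fold enrichment of 13 or more in both replicates was listed for 41 isolated regions (7.59%) and for 18.8% of the others.

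**Figure D1:**
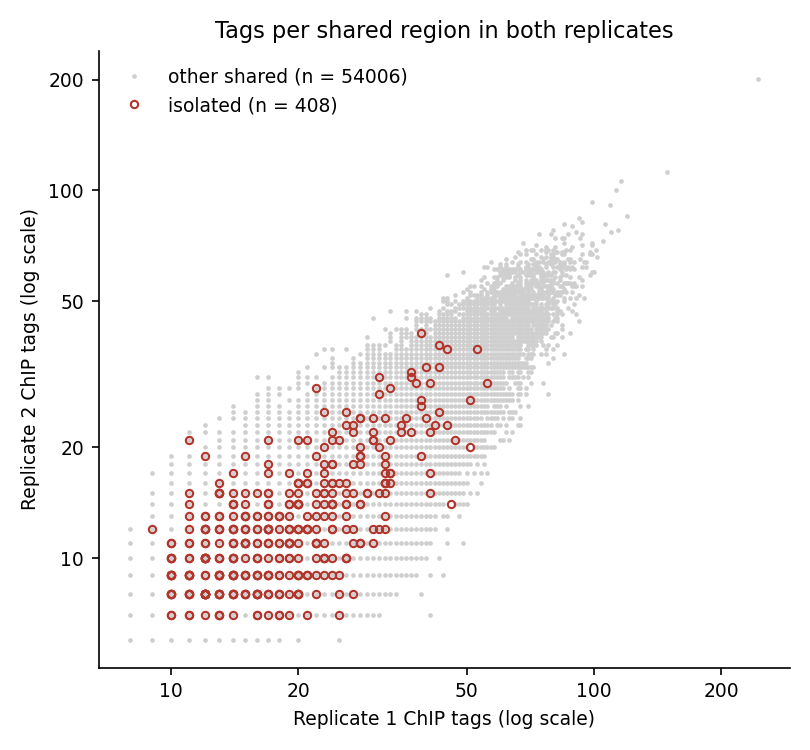
Each point is a shared region with a tag count in both replicates, with replicate 1 ChIP tags on the x axis and replicate 2 ChIP tags on the y axis, both on log scales. The 408 isolated regions (red circles) fill the lower part of the cloud of 54006 other shared regions (grey), and none exceeds 56 replicate 1 tags.

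Fold enrichment at the summit, which the peak caller gives as a ratio over background, showed the same order and was present for every region. Its median was 8.19 in replicate 1 and 6.83 in replicate 2 for isolated regions, compared with 10.1 and 8.03 for the others. The median −log10 q value of isolated regions was 12.1 in replicate 1 and 7.98 in replicate 2, compared with 15.9 and 10.5. Both measures thus placed the typical isolated region below the typical shared region. The isolated regions held little of the signal, with 9073 tags or 0.0742% of the replicate 1 library (95% Wilson interval 0.0726% to 0.0757%) and 5629 tags or 0.0759% of the replicate 2 library (0.0739% to 0.0779%). These intervals cover counting error only.

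The fold over the local background, a second ratio in the BED lists, ran the other way. Its median was 26.6 in replicate 1 and 30.01 in replicate 2 for isolated regions, compared with 13.7 and 15.04 for the other shared regions. Over all shared regions it rose with distance, from 10.5 in replicate 1 where another region lay under 1 kb away to 22.7 at 30 to 100 kb and 27.2 at 200 kb or more. What enters this local background is not given in the sources used here.

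Isolated regions were narrow. The merged regions measured from 191 to 1519 bp, with a median of 304.5 bp and quartiles at 255 and 374.5 bp. Other shared regions had a median of 371 bp, with quartiles at 292 and 501 bp and a largest width of 6083 bp, so the median of the isolated regions was 0.821 of theirs. The peaks before merging showed the same, with medians of 276 bp in replicate 1 and 248 bp in replicate 2 for isolated regions and of 335 and 300 bp for the others. A simple structure was almost universal, since 536 isolated regions (99.3%) consisted of exactly 1 peak of each replicate, compared with 96.8% of the others. Of the remaining 4, 3 had 2 replicate 1 peaks and 1 had 2 replicate 2 peaks.

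Because stronger peaks were wider, width was also compared at like tag counts. With 8 to 14 replicate 1 tags the median width was 266 bp in 173 isolated regions and 287 bp in the others, and with 15 to 19 tags it was 288 bp in 123 isolated regions and 328 bp. With 20 to 29 tags the widths were 346 bp in 123 isolated regions and 390 bp. With 30 to 39 tags they were 396.5 bp in 38 isolated regions and 469 bp, and with 40 or more they were 509.5 bp in 18 isolated regions and 585 bp. The isolated regions were thus narrower in all 5 ranges. Only replicate 1 tags were matched. Median replicate 2 tags were 9 in isolated against 10 in other regions in the first range, and 24.5 against 32 in the last. In between, these medians were 14 against 15 at 20 to 29 replicate 1 tags and equal at 15 to 19 and at 30 to 39. The replicate 1 peaks alone, with no merging, gave 232 against 247 bp in the first range and 494.5 against 543 bp in the last, in the same direction as in the 3 ranges between them. Across isolated regions Spearman's rho between width and replicate 1 tags was 0.57 (n = 475), and points of this kind share their library.

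Tags and width fell in steps with distance across all shared regions, and the isolated regions continued that course instead of standing apart from it. The median replicate 1 tag count was 24 for regions with another merged region under 1 kb away, 22 at 1 to 3 kb, 20 at 3 to 10 kb, 19 at 10 to 30 kb and 18 at 30 to 100 kb. Among the isolated regions it was 17 for the 417 at 100 to 200 kb and 15.5 for the 123 at 200 kb or more. For replicate 2 the last 3 of these steps were 11, 12 and 10 tags, so the order of the nearest isolated regions and of their closest comparison was reversed there. Width ran from 410 bp under 1 kb to 318 bp at 30 to 100 kb, and then to 306 and 297 bp in the 2 isolated groups.

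**Figure D2:**
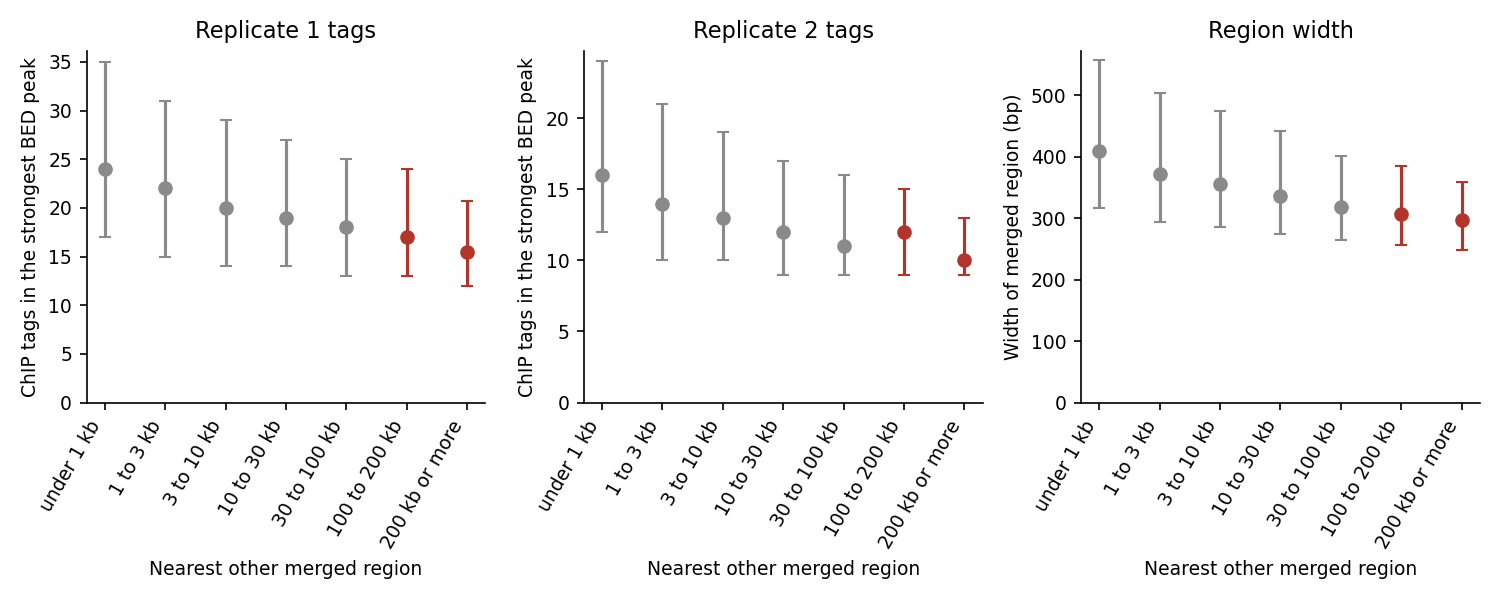
Medians (points) and quartiles (bars) of replicate 1 tags, replicate 2 tags and merged width in bp, by distance to the nearest other merged region, with isolated regions in red and other shared regions in grey. Replicate 1 tags fall from a median of 24 under 1 kb to 15.5 at 200 kb or more, and width falls from 410 to 297 bp.

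The gap between isolated and other shared regions was accordingly small near the limit. Against only those other shared regions that were 30 kb or more from the nearest region, a comparison added after seeing the data, the ratio of medians was 0.944 in replicate 1, 1 in replicate 2 and 0.958 for width. The 56 isolated regions less than 5 kb past the limit had medians of 17 and 11 tags and 304 bp, and the 52 shared regions less than 5 kb short of it had 15 and 10 tags and 288 bp. The region nearest to the limit from inside was chr11:104817673-104817935 (hg19), 100044 bp from its neighbour, with 15 and 14 tags. The one nearest from outside was chr11:22997755-22998067, at 99969 bp, with 16 and 9 tags. The next on the outer side with tags in both replicates, chr2:217821796-217822296 at 99665 bp, had 41 and 29 tags and would have ranked among the strongest isolated regions. At the limit itself the isolated side was thus not the weaker one.

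The nearest merged region lay 100044 to 3445514 bp away from the isolated regions, with a median of 139873.5 bp and quartiles at 113752 and 194585.5 bp. Over all shared regions this median was 2303 bp. The rule fixed that contrast, and the spread within the isolated regions was free to vary. In it, 307 (56.9%) were within 150 kb of their nearest neighbour, 123 were 200 kb or more away, 13 were 500 kb or more and 2 were 1 Mb or more. Of the gaps on the 2 sides, the longer was at the median 1.64 times the shorter. The gaps of both sides together had a median of 429517 bp, counted over all bases, assembled or not. To the nearest shared region alone the median was 173172 bp, against 4614 bp over all shared regions.

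**Figure D3:**
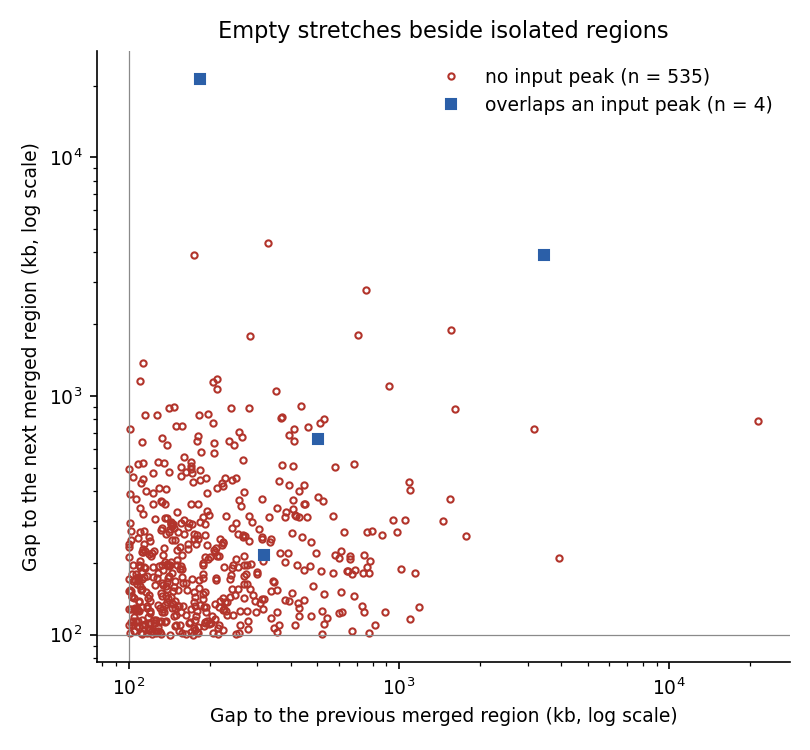
Gap to the previous merged region (x axis) and to the next (y axis), both in kb on log scales, for 535 isolated regions without an input peak (red circles) and the 4 that overlap one (blue squares). The grey lines mark the limit of 100 kb, near which most regions lie, and 1 isolated region without a neighbour on one side is not drawn.

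The neighbours were shared regions and peaks of 1 replicate alone in similar numbers. The nearest merged region had a replicate 1 peak but no replicate 2 peak for 218 isolated regions (40.4%) and had a replicate 2 peak only for 55 (10.2%). For 198 (36.7%) it was a shared region that was not isolated, and for 69 (12.8%) it was another isolated region. Of all merged regions 59.8% were shared, and the neighbours of the other shared regions were not counted in this way. Consecutive isolated regions with nothing between them occurred in 57 runs that held 129 regions, of which 43 were pairs, 13 were triplets and 1 had 4 members, whereas 411 stood alone. The run of 4 spanned 1.75 Mb on chromosome 16, at chr16:32876587-34626132, with 9 to 19 replicate 1 tags in the 3 members that had a count, and its member chr16:33963026-33963376 overlapped an input peak. When only shared regions were counted as neighbours, 1739 regions were isolated, so replicate-specific peaks bordered many shared regions that were otherwise remote. With the peaks of replicate 2 alone 1641 regions were isolated, and with those of replicate 1 alone 1352, nearly all of the 540 among them in either case (539 and 537).

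Chromosomes with few shared regions per Mb, counted over the stretch from the first to the last merged region, had the larger isolated shares. Chromosome 13 had 31 isolated of 1157 shared regions (2.68%) and chromosome X 39 of 1654 (2.36%), with 12.2 and 10.7 shared regions per Mb. Chromosome 5 had the largest number, 48 of 2986 (1.61%). At the other end were chromosome 22 with 2 of 1639 (0.122%), chromosome 17 with 7 of 3675 (0.191%) and chromosome 19 with 8 of 3050 (0.262%), at 45.3 to 51.7 shared regions per Mb. Across the 23 chromosomes Spearman's rho of the isolated share with the density was −0.96, which is a description because the density itself enters the rule.

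**Figure D4:**
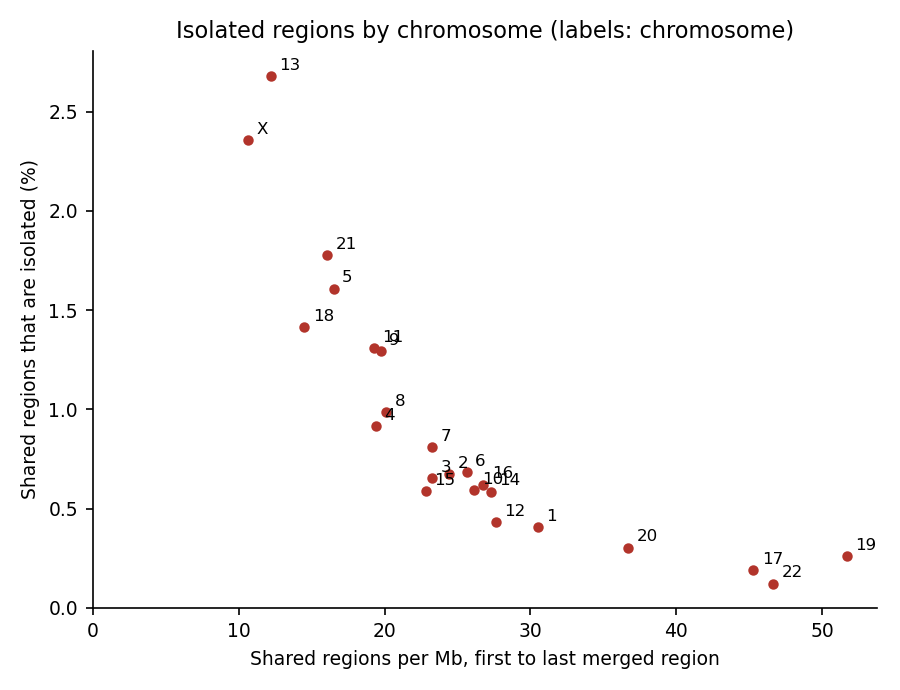
Percent of shared regions that were isolated (y axis) against shared regions per Mb from the first to the last merged region of the chromosome (x axis), with 1 point for each of 23 chromosomes. Chromosomes 13 and X, at 12.2 and 10.7 shared regions per Mb, have 2.68% and 2.36% isolated, and chromosomes 17, 19 and 22 have the least.

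The lower tag counts were also present within chromosomes. The isolated median was below that of the other shared regions on 21 of 23 for replicate 1 tags, equal on chromosome 12 and higher on chromosome 19. Isolated regions with a replicate 1 count numbered 7 on chromosome 19. They were as few on some chromosomes with a lower median, with 7 on chromosome 17, 7 on chromosome 21, 6 on chromosome 20 and 2 on chromosome 22. For replicate 2 tags the isolated median was lower on 22 chromosomes and equal on chromosome 13, and for width it was lower on all 23. Fold enrichment was lower on 20 chromosomes in replicate 1, the exceptions being 6, 17 and 19, and on 19 in replicate 2. With the other shared regions weighted to the chromosome mix of the isolated ones, their medians were 20 and 13 tags and 364 bp, between the unweighted medians of 21, 14 and 371 and those of the isolated regions.

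Isolated peaks were found less often in the other replicate. Among merged regions at least 100 kb from any other, whether shared or not, 540 of 1270 (42.5%) were shared, 608 had a replicate 1 peak only and 122 a replicate 2 peak only, whereas 60.02% of all other merged regions were shared, so selecting shared regions removed most isolated calls. Of replicate 1 peaks in isolated merged regions, 543 of 1151 (47.2%) overlapped a replicate 2 peak, compared with 65.5% of other replicate 1 peaks. Of replicate 2 peaks, 541 of 663 (81.6%) overlapped a replicate 1 peak, compared with 88.6%. Replicate 2 was the shallower library, and fewer of its peaks lacked a partner.

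Recovery was also compared at like fold enrichment, since isolated peaks were weaker. Replicate 1 peaks with a fold under 5 were recovered in 16.9% of isolated and 24.1% of other cases, those with a fold of 6 to 7 in 40.7% and 55.1%, and those with 8 to 10 in 73.4% and 81.1%. At a fold of 13 or more, 90 of 91 isolated peaks (98.9%) were recovered, and 99.7% of the others. In replicate 1 the isolated peaks were thus lower in all 7 ranges of fold. In replicate 2 the order was less regular. Isolated peaks with a fold under 5 were recovered more often than others, in 68.0% against 61.2% of cases. At 5 to 6 they were recovered in 67.8% against 78.7%, and at 6 to 7 in 80% against 89.1%. From a fold of 7 upward the values of both sets were within 4 percentage points of each other.

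**Figure D5:**
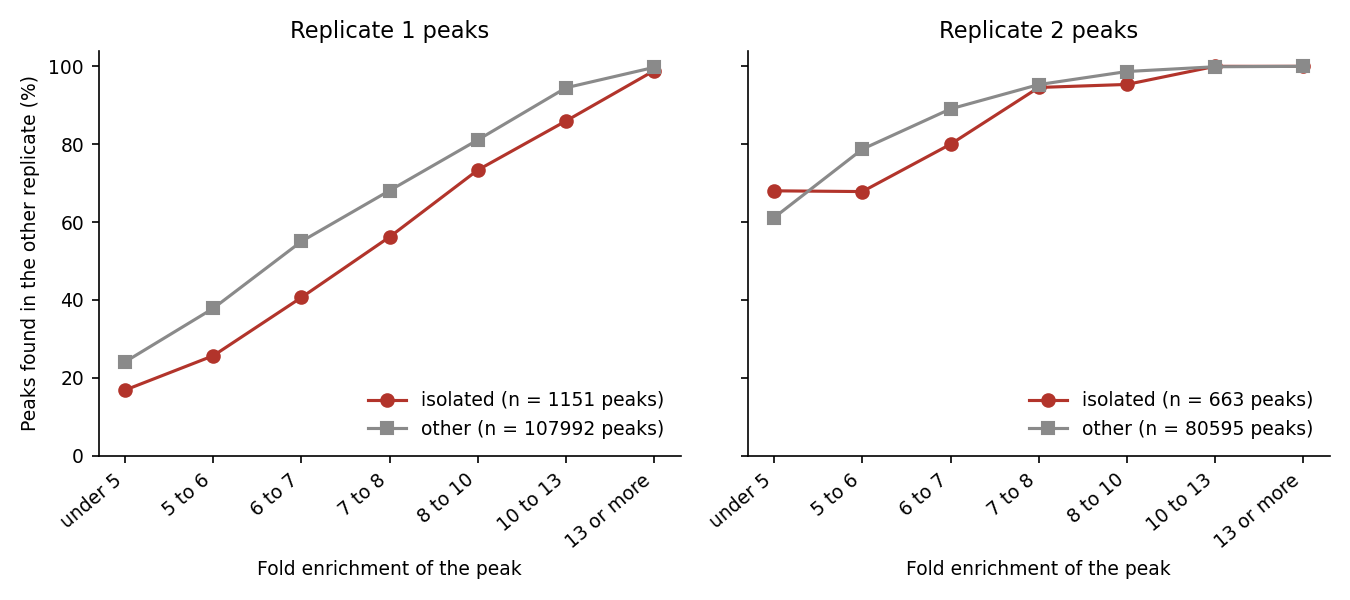
Percent of peaks that overlap a peak of the other replicate (y axis), by fold enrichment at the summit (x axis), for isolated peaks (red) and other peaks (grey), with replicate 1 on the left and replicate 2 on the right. At a fold of 5 to 6, 25.7% of isolated and 37.9% of other replicate 1 peaks are recovered, and from a fold of 13 upward nearly all are recovered in both panels.

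Within the isolated regions the replicates were close in scale and loose in rank. Expressed per 10000000 tags of each library, the ratio of replicate 1 to replicate 2 had a median of 0.909 in isolated and in other shared regions, with quartiles at 0.741 and 1.13 against 0.758 and 1.12. Replicate 2 supplied 39.8% of the tags of isolated regions with both counts and 39.9% of those of the others. Spearman's rho between the tag counts of both replicates was 0.61 over 408 isolated regions and 0.79 over 54006 other shared regions. The narrower range of tags in isolated regions accompanied the lower value. Over all shared regions this rho fell with distance, from 0.82 under 1 kb to 0.66 at 30 to 100 kb. It was 0.65 at 100 to 200 kb and 0.42 at 200 kb or more. Summits of both replicates lay within 100 bp of each other in 503 isolated regions (93.2%), at a median distance of 32 bp, compared with 92.1% and 31 bp in the others. The summits thus lay about as close together in isolated as in other shared regions.

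The strongest isolated regions were well above the input in both libraries. By the lower of both tag rates, the first was chr1:159567717-159568456, with 53 replicate 1 tags (95% Poisson interval 39.7 to 69.3), 37 replicate 2 tags (26.1 to 51.0) and 0 input tags. It was 740 bp wide, had fold enrichments of 25.7 and 22.5, and lay 153 kb from the region before it and 153.6 kb from the one after. Next came chr8:49701173-49701684, with 56 and 30 tags, and chr19:8943212-8943810, with 45 and 37. All 10 regions of this rank had at least 40 replicate 1 tags, at least 24 replicate 2 tags and 0 or 1 input tags. A count of 0 in the input allows up to 3 input tags as a one-sided 95% limit, and 1 input tag was worth 0.564 tags at the depth of replicate 1 and 0.342 at that of replicate 2.

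Chromosomes 19, 13 and 6, picked after the list was seen, held 7 of these 10 regions. Of all 540 isolated regions, these chromosomes held 8, 31 and 30 in the same order, and the difference was not tested. Chromosome 19, which had only 8 isolated regions in all, held chr19:8943212-8943810, chr19:29589734-29590453 with 43 and 33 tags, and chr19:23578139-23578623 with 41 and 30. On chromosome 13 lay chr13:42845472-42846226 with 40 and 33 tags and chr13:104535396-104536028 with 40 and 24. On chromosome 6 lay chr6:79308631-79309063 with 51 and 27 and chr6:163042288-163042676 with 43 and 25. Outside these chromosomes, the fifth in rank was chr17:72038914-72039256, with 43 and 38 tags within only 343 bp, the narrowest of the 10. Strength and width thus parted in single regions.

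In single regions the balance between the replicates varied. Among the 50 isolated regions with 20 or more tags in both, the rate ratio of replicate 1 to replicate 2 ran from 0.460 to 1.55, with a median of 0.779, and the minimum of 20 tags in the shallower replicate 2 favoured regions that were high there. The highest ratio was at chr16:80060944-80061404, with 51 and 20 tags, or 41.7 (95% interval 31.0 to 54.8) and 27.0 (16.5 to 41.6) per 10000000. The lowest was at chrX:54835049-54835589, with 22 and 29 tags, or 18.0 (11.3 to 27.2) and 39.1 (26.2 to 56.1). The counting intervals of both replicates overlapped in each of the 50. Over all 408 isolated regions with both counts they were apart in 1 (0.245%), chr7:91187309-91187668 with 11 and 21 tags, named after its values were seen, compared with 0.259% of the other shared regions. Among the 50, the next on the high side were chrX:86664474-86665114 with 47 and 21 tags, chr12:127256688-127257429 with 45 and 23, and the regions on chromosomes 6 and 8 with 51 and 27 and with 56 and 30 tags. The next on the low side were chr4:44450806-44451200 with 23 and 25, chr21:15755147-15756242 with 39 and 41, chrX:136647979-136648330 with 20 and 21, and chr3:131622772-131623208 with 31 and 31.

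The most remote regions ranged from weak to moderate in tags. The longest distance to a neighbour, 3445514 bp before and 3914.5 kb after, belonged to chr11:51579356-51579764, which had fold enrichments of 1.44 and 2.07 and overlapped an input peak. It had 74 replicate 2 tags, the highest count of any isolated region in that library, but also 46 input tags, and no replicate 1 BED peak. The next, chr21:24130914-24131132, was 1558.2 kb and 1899.3 kb from its neighbours and had 11 and 8 tags with 1 input tag. After it came chr2:126163379-126163843 with 23 and 10 tags, and chrX:93433509-93433733 with 13 replicate 1 tags and no replicate 2 BED peak. The fifth, chr1:142890904-142891170 with 13 and 16 tags, bordered the longest stretch of all without a merged region, 21405406 bp. Gaps ran over all bases, assembled or not, and how much of each long gap was assembled sequence was not analysed here. A long gap is therefore not a measure of genome without binding.

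On the other side of that stretch lay the widest isolated region, chr1:121483979-121485497, which was 1519 bp wide, had fold enrichments of only 1.85 and 3.02 and also overlapped an input peak. The second widest, chr3:96335984-96337119 with 1136 bp, had folds of 19.5 and 26.4 and no BED peak. The 3 others were chr21:15755147-15756242 with 1096 bp and 39 and 41 tags, chrX:54665617-54666662 with 1046 bp and 37 and 32 tags, and chr2:87303339-87304257 with 919 bp but 14 tags in each replicate. The widest regions thus mixed strong ChIP signal, weak signal over an input peak and regions without a tag count.

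Averaged over all regions with a tag count, input DNA had more tags at isolated than at other shared regions, though not at every ChIP strength. Counted through the replicate 1 BED list, the input had 411 tags over 475 isolated regions, a mean of 0.865 per region (95% Poisson interval 0.784 to 0.953), compared with 0.768 (0.761 to 0.775) in the others. Through the replicate 2 list the mean was 1.02 (0.928 to 1.12) against 0.804, and 0.916 (0.828 to 1.01) without the region on chromosome 11 that had 46 input tags. At 0 input tags were 45.1% and 46.2% of isolated regions in the 2 lists, and 50.4% and 49.2% of the others. At like replicate 1 tags the order was reversed in 2 of 5 ranges, with means of 0.832 against 0.862 input tags at 8 to 14 ChIP tags and 0.5 against 0.551 at 40 or more. The means stayed near 1 input tag or below beside a median of 17 replicate 1 ChIP tags, and the part of the input in the ChIP counts was not tested.

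Overlap with an input peak was rare and concentrated at the weak end. Of 255 input peaks, some fell in 4 isolated regions (0.741%) and in 24 of the other shared regions (0.0344%). Besides those on chromosomes 1 and 11, the isolated ones were chr16:33963026-33963376, with folds of 1.86 and 2.21, and chrX:108297303-108297642, with 1.95 and 2.46. Fold enrichment was under 3 in both replicates in 4 isolated regions (0.741%), of which 3 overlapped an input peak, and in 30 of the other shared regions (0.0430%), of which 12 did. The exception was chr7:61080421-61080770, named after its values were seen, with 21 tags in each replicate, 5 and 6 input tags, and folds of 1.51 and 2.22. Without the 4 regions on input peaks, the median tags of the 536 isolated regions left were 17 and 11, as with them.

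A BED peak was present in both lists for 408 isolated regions, in the replicate 1 list only for 67, in the replicate 2 list only for 21 and in neither for 44. The share with a replicate 1 BED peak, 88.0%, was close to the 87.4% of the other shared regions, and for replicate 2 it was 79.4% against 81.3%. Missing counts were not spread evenly over the genome. On chromosome 9 only 23 of 36 isolated regions had a replicate 1 count, compared with 47 of 48 on chromosome 5. From chr9:39464453 to chr9:70857030, a stretch named after its values were seen, chr9:44227239-44227623 was the only isolated region with a tag count. The 44 without a tag count had lower folds, with medians of 5.62 and 5.13. Some of them were nevertheless among the strongest by fold, and these were named after their values were seen. The region chr13:110076353-110076818 had folds of 55.4 and 74.5, the highest of any isolated region in both replicates, overlapped no input peak and had no BED peak in either list. Behind chr3:96335984-96337119 followed chr9:70856604-70857030 with 19.8 and 17.3 and chr21:10492764-10493088 with 15.2 and 13.04. The tag counts therefore leave out the region with the highest fold.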

How the data were processed

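ChIP-seq peak lists of 2 HA-PRCC-TFE3 replicates and 1 input DNA library were used, grouped by their labels. The authors called peaks for each sample separately, and the study's methods name MACS, run within Strand NGS against input DNA. The aligner and the handling of duplicates are not given in the sources used here, and the build, hg19, comes from the submitters' processing notes. In the deposited narrowPeak lists each peak had a fold ratio at its summit, −log10 p and −log10 q values and a score. In the deposited BED lists, whose header was displaced and was read by position, each peak had a tag count, a score, a signal in tags per 10000000, fold ratios over input and over local background with p-values, and a focus fraction, which was not used. The software that wrote the BED lists is not given in the sources used here.

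Peaks were merged at 1 bp overlap, and distances ran over all bases, assembled or not, between the nearest edges. A chromosome end did not count as a neighbour. Library totals were the sum of tags over the sum of the scaled signal, and input tags were recovered from tags and fold over input (100% whole within 0.1). BED windows were 208 and 212 bp. The genome given here was hg38, so motifs, start sites and sequences were not analysed here. Regions were named by rule: the 10 with the highest lower-of-both tag rate and no input peak, the 5 with the longest nearest gap, the 5 widest, the 5 with the highest and the 5 with the lowest replicate ratio among those with 20 or more tags in both, and all on input peaks. Regions at the limit, the longest run and those said to be named after their values were seen are additions. The members and lists were chosen with earlier results of these data known. Poisson intervals were exact and shares had Wilson intervals, at 95%, and cover counting error only. Scripts used Python 3.11.15 with numpy 2.4.6, pandas 2.3.3, scipy 1.17.1 and matplotlib 3.10.9, and were tested on simulated data.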

Additional observations from a re-analysis of the deposited data

How the results depend on the processing

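Of 45 values from alternative settings, 22 stayed within the spread between replicates or, for counts, near the value as reported, and 23 moved. Of the ratios of medians among them, 0 changed direction against the comparison set, although 2 reached equality. The counts of isolated regions and the mean of input tags had no comparison set and could not change direction. The count of isolated regions was 1833 at a limit of 50 kb, 123 at 200 kb and 1739 with only shared regions as neighbours, and it was 1641 without replicate 1 and 1352 without replicate 2. Of the 540 regions, 403 were among the 608 regions found with q below 1e-05 and 369 among the 610 found with the BED lists. The ratio of median replicate 1 tags was 0.738 at 200 kb, 0.783 with q below 1e-05, 0.773 with the BED lists and 0.778 without replicate 2, and that of replicate 2 tags was 0.714 at 200 kb. The ratio of median widths was 0.831 at 50 kb, 0.801 at 200 kb, 0.836 with only shared neighbours, 0.818 with q below 1e-05, 0.831 with a reciprocal overlap of 50%, between 0.824 and 0.842 with 1 replicate left out, and 1 with the BED lists, whose peaks have a fixed width. The mean of input tags was 1.02 from the replicate 2 list.

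Chosen after seeing the data were leaving out regions on an input peak, with a width ratio of 0.818, counting BED peaks outside merged regions as neighbours, which left 499 isolated regions, and comparing only with shared regions 30 kb or more apart. That comparison gave 0.944 and 1 for tags and 0.958 for width, so the size of the difference depends on which regions are compared. No paired analysis was possible because input DNA was 1 library with no number shared with the ChIP replicates. The settings meant for start sites and motifs were not run, since they need hg19 sequence. Replicate 2 had fewer tags and fewer peaks, and the part of its depth in which regions were shared was not tested. No tag count was present for 44 isolated regions.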

Other observations

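Isolated regions with a gap of 1 Mb or more on at least 1 side numbered 29, and these were grouped after their values were seen. Some of them faced each other across the same stretch without a merged region. These stretches were counted over all bases, and the part that was unassembled was not analysed here. On chromosome 5, chr5:45696347-45696657 with 19 and 14 tags and chr5:49599015-49599269 with 17 and 9 tags were 3.90 Mb apart. On chromosome 15, chr15:53364253-53364656 with 22 and 13 tags and chr15:55141925-55142288 with 10 tags in each replicate were 1.78 Mb apart. Among those of the 29 with a tag count in both replicates, the strongest by the lower tag rate was chr1:164527912-164528492. It had 33 and 29 tags, 0 input tags and folds of 18.2 and 19.3, and lay 1022.0 kb from the region before it and 189 kb from the one after.

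BED peaks that overlapped no merged region numbered 1868 for replicate 1 and 1074 for replicate 2, and 41 isolated regions had at least 1 of them within 100 kb.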
